A study of Homo sapiens with 9 samples.

Results

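The miR-106b/25 cluster is a group of 3 microRNA (miRNA) hairpins, MIR106B, MIR93 and MIR25, that lie inside the gene MCM7. Its 6 mature products, hsa-miR-106b-5p, hsa-miR-106b-3p, hsa-miR-93-5p, hsa-miR-93-3p, hsa-miR-25-3p and hsa-miR-25-5p (the species prefix is left out below), were taken by name from a count table of 2883 rows that holds 2654 mature miRNA names. Each product has 1 row, and all 6 were among the 701 rows (626 mature names) that passed the filter on low counts. The data were small RNA libraries of Jurkat cells (clone E6-1), a long-established line of human T lymphoblasts. Unactivated cells (0 h) were compared with cells activated for 5 h and for 12 h, in 3 biological replicates at each time and 9 libraries in all. The stimulus was anti-CD3 coated on the plate at 10 µg/mL, which engages the T cell receptor complex, with anti-CD28 in the medium at 5 µg/mL, which supplies costimulation. The cells are 1 clonal leukaemia-derived line, and unactivated cells were taken at 0 h only. A difference between times therefore cannot be told apart from time in culture or handling.

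A miRNA hairpin is cut from a longer transcript and then trimmed to a short duplex, of which usually one strand, or arm, is kept in Argonaute and the other is discarded. The retained arm finds its target mRNAs mainly through its seed, the bases from position 2 to position 8, so that miRNAs with the same seed share many target sites. MCM7 encodes a subunit of the replicative DNA helicase and is transcribed in dividing cells. The cluster is a paralogue of the miR-17/92a cluster and of the miR-106a/miR-363 cluster, and is known for restraining the cell cycle inhibitor p21 (miR-106b and miR-93) and the proapoptotic protein BIM (miR-25).

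On GRCh38 with the GENCODE 29 annotation, MCM7 occupies chr7:100092728-100101940 on the minus strand. The 3 hairpins are MIR106B at chr7:100093993-100094074, MIR93 at chr7:100093768-100093847 and MIR25 at chr7:100093560-100093643, all on the same strand as MCM7. In the 15-exon transcript MCM7-201 they lie in intron 13, which is 771 bases long (chr7:100093402-100094172), and they begin 98, 325 and 529 bases from its 5′ end. The hairpins span 515 bases, with 145 bases between MIR106B and MIR93 and 124 bases between MIR93 and MIR25. All 3 were intronic in 4 of the 5 protein-coding MCM7 transcripts, and none overlapped an exon of any of the 13 annotated transcripts.

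**Figure D1:**
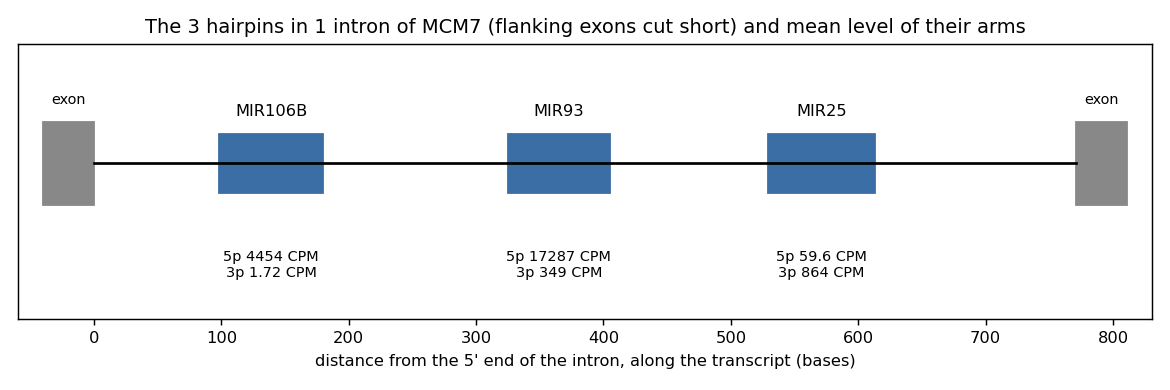
Map of the MCM7 intron that holds the cluster, drawn to scale along the transcript in bases from the 5′ end of the intron, with the mean level of both arms of each hairpin in counts per 1000000 counts (CPM) over 9 libraries. MIR106B, MIR93 and MIR25 begin at 98, 325 and 529 bases, and the dominant arm is 5p in the first 2 hairpins and 3p in MIR25.

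The 6 mature sequences (RefSeq, GRCh38.p14, minus strand, 5′ to 3′) are shown because the cluster joins 2 seed families in 1 intron. The capitals mark the seed.
miR-106b-5p: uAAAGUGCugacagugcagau
miR-93-5p: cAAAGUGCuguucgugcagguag
miR-25-3p: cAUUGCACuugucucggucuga
miR-106b-3p: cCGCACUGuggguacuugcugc
miR-93-3p: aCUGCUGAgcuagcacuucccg
miR-25-5p: aGGCGGAGacuugggcaauug
The first pair share the seed AAAGUGC, and miR-25-3p carries AUUGCAC. Among the mature names of the RefSeq table, AAAGUGC is the seed of 8 and AUUGCAC of 6. The seeds of miR-106b-3p, miR-93-3p and miR-25-5p each occur in that 1 name only.

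The seed relatives that were counted in these cells are shown for comparison, the first 4 with the seed AAAGUGC and the rest with AUUGCAC.
miR-17-5p: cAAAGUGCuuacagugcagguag
miR-20a-5p: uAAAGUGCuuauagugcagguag
miR-106a-5p: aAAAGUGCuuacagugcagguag
miR-20b-5p: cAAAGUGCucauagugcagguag
miR-92a-3p: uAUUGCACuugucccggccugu
miR-363-3p: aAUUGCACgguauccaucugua
miR-92b-3p: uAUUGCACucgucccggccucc
miR-32-5p: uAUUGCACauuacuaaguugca
Over its 21 bases miR-106b-5p differs from miR-17-5p, miR-20a-5p and miR-106a-5p at 3 positions each and from miR-93-5p at 5. Over 23 bases miR-93-5p differs from miR-20b-5p at 3 positions and from miR-17-5p at 4. miR-25-3p differs from miR-92a-3p at 4 of 22 positions. How reads of such similar sequences were assigned is not given in the sources used here, so the split of counts within a seed family is uncertain.

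The hairpins of MIR25 and MIR106B (RefSeq, GRCh38.p14, minus strand) show the 2 arms, in capitals, facing each other across the loop.
MIR25: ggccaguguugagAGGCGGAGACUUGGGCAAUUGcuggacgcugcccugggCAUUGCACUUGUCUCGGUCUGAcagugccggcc
MIR106B: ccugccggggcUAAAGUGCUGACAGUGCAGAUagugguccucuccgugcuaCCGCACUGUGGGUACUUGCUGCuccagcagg
In the 84 bases of MIR25 the 5p arm runs from base 14 to 34 and the 3p arm from base 52 to 73, with 17 bases between them. In the 82 bases of MIR106B the arms run from base 12 to 32 and from base 52 to 73, with 19 bases between them.

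In depth the libraries spanned 6631839 to 16207031 counts, of which 181414 to 381211 belonged to the cluster, and 3 counts were worth 0.176 to 0.471 CPM. These totals, on which CPM rest, run over all rows, and a mature miRNA can have more than 1 row. With each mature miRNA counted once they were 4232272 to 10450005. The shallowest were replicate 3 of 12 h and replicate 3 of 0 h, which also had the highest miR-93-5p of the 9 libraries; the part of depth in those values was not tested. Of 4 miRNAs that mark T and blood cells all were present, with miR-181a-5p at a mean of 29559 CPM and miR-142-3p at 9202 CPM. Of 13 markers of other cell types 4 were at 0 in every library (miR-1-3p, miR-133a-3p, miR-124-3p and miR-144-5p). Others of that list were present, led by miR-223-3p of myeloid cells at a mean of 134 CPM and by miR-200c-3p and miR-141-3p of epithelial cells at 103 and 62.7 CPM. The hepatocyte miRNA miR-122-5p ran from 0 to 66.8 CPM, the highest value being in a library of 5 h, and the other 5 markers each averaged at most 13.4 CPM. The part of any marker in the results on the cluster was not tested. The 13 together summed to between 269 and 344 CPM in the 0 h libraries, between 312 and 409 CPM in those of 5 h and between 331 and 380 CPM in those of 12 h. edgeR called 0 of the 4 and 0 of the 8 tested other markers in each comparison. Of all tested rows it called 1.57% (5 h against 0 h), 1.43% (12 h against 0 h) and 0.571% (12 h against 5 h). In each pair of times 1 of each list had an unadjusted p under 0.05. DESeq2 and limma-voom called 1 of the 4 at 12 h against 0 h, and the share of all rows that they called is not given here. From 0 h to 12 h the means went from 7763 to 10151 CPM for miR-142-3p and from 29959 to 32347 CPM for miR-181a-5p. They went from 1467 to 1402 CPM for miR-142-5p and from 271 to 246 CPM for miR-150-5p. The libraries are of bulk RNA, in which fewer cells making a miRNA and less of it per cell cannot be told apart.

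The dominant arms of the 3 hairpins were present at very unequal levels although they come from 1 intron. Levels are CPM after scaling by the trimmed mean of M-values (TMM) in edgeR, given as mean ± SD over 9 libraries. miR-93-5p averaged 17287 ± 3533 CPM and was 11th by level among the 1098 mature miRNAs with a count above 0. miR-106b-5p averaged 4454 ± 461 CPM (rank 23) and miR-25-3p 864 ± 110 CPM (rank 51). In every library the order was miR-93-5p, then miR-106b-5p, then miR-25-3p. The ratio of the means was 3.88 for miR-93-5p over miR-106b-5p (2.79 to 5.81 in single libraries). It was 5.16 for miR-106b-5p over miR-25-3p (4.39 to 7.48), and in single libraries miR-93-5p exceeded miR-25-3p by 14.7 to 28.9 times. The ranges of the 3 arms over the 9 libraries did not overlap, and since ligation to adapters differs between sequences, levels of different miRNAs are not molar amounts.

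Among the minor arms, miR-93-3p averaged 349 ± 31.9 CPM (rank 78), miR-25-5p 59.6 ± 18.2 CPM (rank 143) and miR-106b-3p 1.72 ± 1.01 CPM (rank 429). miR-106b-3p rested on only 3 to 57 counts per library, while miR-25-5p had 181 to 1333 and miR-93-3p 2431 to 5666. Of all counts of the cluster, miR-93-5p held 74.6%, miR-106b-5p 19.7%, miR-25-3p 3.85%, miR-93-3p 1.53%, miR-25-5p 0.263% and miR-106b-3p 0.00792%. The dominant arm exceeded its partner 49.6-fold in MIR93, 14.5-fold in MIR25 and 2582-fold in MIR106B. Between the hairpins this imbalance of the arms spanned a wider range than the level of the dominant arm did.

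**Figure D2:**
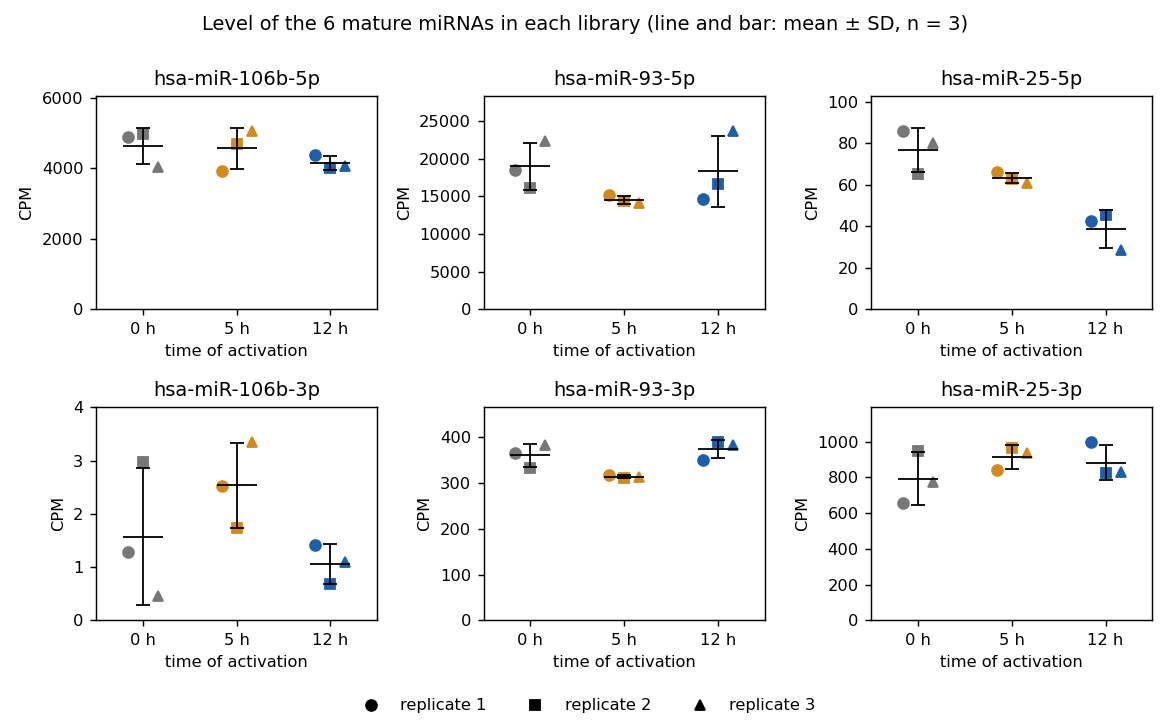
Level in CPM (y axis, from 0) of each of the 6 mature miRNAs at 0 h, 5 h and 12 h (x axis); each point is 1 library, the line is the mean and the bar ± SD (n = 3). The 3 libraries of 12 h sit below all 3 of 0 h for miR-25-5p, and replicate 3 of 0 h and of 12 h are the highest for miR-93-5p.

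miR-25-5p, the minor arm of MIR25, was the 1 product of the cluster that passed the test, in the comparison of 12 h with 0 h, and that call was lost in some alternative settings. In replicates 1, 2 and 3 it had 85.7, 65.1 and 79.8 CPM at 0 h, 65.9, 62.9 and 60.7 CPM at 5 h and 42.6, 45.2 and 28.4 CPM at 12 h. All 3 libraries of 12 h lay below all 3 of 5 h and of 0 h, and the libraries of 5 h overlapped those of 0 h. It fell to 38.7 ± 9.04 CPM at 12 h, against 76.9 ± 10.6 CPM at 0 h (SD, n = 3 each), which is 0.504 of the earlier level (log2 change -0.99, SE 0.22, 95% interval -1.45 to -0.52, edgeR quasi-likelihood test with Benjamini-Hochberg adjustment over 701 rows, adjusted p = 0.0210). The 12 h libraries hold 181 to 570 counts of this arm, which is far above the floor of 3 counts.

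In the comparison of 12 h with 0 h, 1 of the 6 members passed the test, against 1.43% of all tested rows in either direction, 0.428% lower and 0.999% higher. The shares just given are of the edgeR fit. DESeq2 and limma-voom also called 1 member, while 0 were called by limma when the authors' log2 values were used. Separated groups with 12 h lower, as in miR-25-5p, were seen in 4.99% of all rows, and with 12 h higher in 7.13%. The call did not hold in 8 of 21 alternative settings, while the log2 change of miR-25-5p ran from -1.14 to -0.79 over the 21. Without replicate 1 of 0 h its edgeR adjusted p was 0.143, without replicate 3 of 0 h 0.0558 and without replicate 3 of 12 h 0.0750. Without those last 2, the shallowest libraries, it was 0.161.

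The steps on either side of 5 h did not pass for miR-25-5p. At 5 h it averaged 63.2 ± 2.59 CPM, against 76.9 ± 10.6 CPM at 0 h (log2 change -0.28, SE 0.22, edgeR adjusted p = 0.996). That log2 change was -0.17 without replicate 1 of 0 h and -0.42 without replicate 2 of 0 h. At 12 h it averaged 38.7 ± 9.04 CPM, against 63.2 ± 2.59 CPM at 5 h (log2 change -0.70, SE 0.22, edgeR adjusted p = 0.442). Testing all 3 times at once gave miR-25-5p an adjusted p of 0.0592 in edgeR and of 0.00756 in DESeq2. By that test edgeR called 0 of the 6 members (2 at an unadjusted p under 0.05) and 1.71% of all rows. limma-voom called 0 members and DESeq2 1, and the share of all rows that each called is not given here.

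miR-25-3p, the arm of the same hairpin that dominates and carries the AUUGCAC seed, had 655, 948 and 772 CPM at 0 h, 841, 967 and 939 CPM at 5 h and 996, 825 and 828 CPM at 12 h. The lowest library was replicate 1 of 0 h, and the 3 times overlapped. It averaged 916 ± 66.3 CPM at 5 h, against 792 ± 148 CPM at 0 h (log2 change 0.21, SE 0.14, edgeR adjusted p = 0.904). At 12 h it averaged 883 ± 97.7 CPM (log2 change against 0 h 0.16, SE 0.14, edgeR adjusted p = 0.965). The 95% interval of that change ran from -0.13 to 0.45, and that of miR-25-5p lay below it without overlap.

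The ratio of the arms of MIR25 was examined within each library, where it does not depend on the scaling between libraries. The log2 ratio of 3p to 5p counts in replicates 1, 2 and 3 was 2.93, 3.86 and 3.27 at 0 h, 3.67, 3.94 and 3.95 at 5 h and 4.55, 4.19 and 4.86 at 12 h. All 3 libraries of 12 h were above all those of the earlier times. Of the counts of this hairpin the 5p arm made up 9.12% ± 2.58 at 0 h, 6.48% ± 0.679 at 5 h and 4.20% ± 0.943 at 12 h.

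Tested across the 163 hairpins with both arms measured, the arm ratio of MIR25 was 1.18 log2 units higher at 12 h than at 0 h (means 4.53 and 3.36, SE 0.34, 95% interval 0.38 to 1.97, limma adjusted p = 0.324). Its rank by p was 5 of the 163, and like every other hairpin it missed the threshold. In each comparison limma called 0 hairpins after adjustment, with 9 at an unadjusted p under 0.05 for 5 h against 0 h, 11 for 12 h against 0 h and 12 for 12 h against 5 h. Separated groups, as MIR25 showed, were found in 14.7% of all hairpins for 12 h against 0 h. Between 12 h and 5 h the ratio of MIR25 was 0.68 higher (SE 0.34, limma adjusted p = 0.758), again with separated groups, as in 15.3% of all hairpins.

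**Figure D3:**
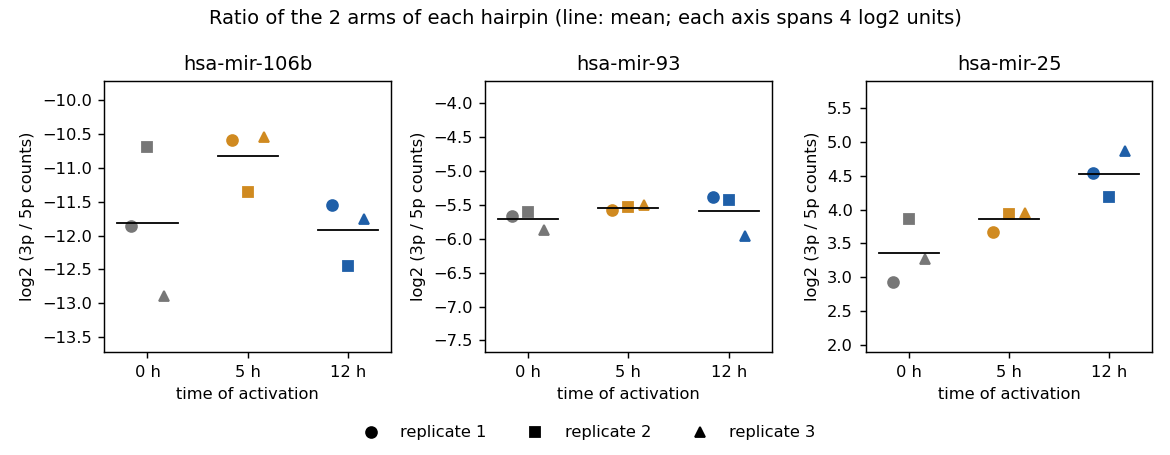
Log2 ratio of 3p to 5p counts (y axis, each panel spanning 4 log2 units) in MIR106B, MIR93 and MIR25 at 0 h, 5 h and 12 h; each point is 1 library and the line is the mean of 3. In MIR25 the means were 3.36, 3.85 and 4.53 and the 12 h libraries were above all others, while in MIR93 the 9 libraries stayed close to the mean of -5.61.

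miR-93-5p, the most abundant product, had 18503, 16105 and 22361 CPM at 0 h, 15158, 14360 and 14109 CPM at 5 h and 14639, 16686 and 23663 CPM at 12 h. All libraries of 5 h were below all of 0 h, and those of 12 h spanned nearly the whole range. At 5 h it averaged 14542 ± 548 CPM, against 18990 ± 3156 CPM at 0 h (log2 change -0.38, SE 0.15, edgeR adjusted p = 0.668). At 12 h it averaged 18329 ± 4731 CPM (log2 change against 0 h -0.051, SE 0.15, edgeR adjusted p = 0.991). Between 12 h and 5 h the log2 change of 0.33 (SE 0.15, edgeR adjusted p = 0.720) was 0.094 without replicate 3 of 12 h.

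For 5 h against 0 h, miR-93-5p passed the threshold in 1 of 21 alternatives, the fit that kept rows with low counts (edgeR adjusted p = 0.0400). Its log2 change was -0.25 without replicate 3 of 0 h and also -0.25 without both of the shallowest libraries. In the main comparison of 5 h with 0 h, 0 of the 6 members passed in edgeR, where 1.57% of all rows did. At an unadjusted p under 0.05 there was 1 (miR-93-5p), and DESeq2 and limma-voom called 0. The 5 h and 0 h libraries were separated for 2 members, miR-93-5p and miR-93-3p, both lower at 5 h, against 10.8% of all rows in either direction, 3.99% lower and 6.85% higher.

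miR-93-3p, the minor arm of MIR93, was likewise lowest at 5 h, at a much lower level. It had 364, 332 and 382 CPM at 0 h, 317, 310 and 312 CPM at 5 h and 350, 388 and 381 CPM at 12 h. The libraries of 5 h were below all others, and those of 12 h overlapped those of 0 h. The log2 change was -0.20 for 5 h against 0 h (SE 0.13, edgeR adjusted p = 0.850) and 0.25 for 12 h against 5 h (SE 0.13, edgeR adjusted p = 0.720).

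For the balance of the arms of MIR93 no difference between times passed the threshold. Of the counts of that hairpin the 3p arm made up 1.88% ± 0.177 at 0 h, 2.11% ± 0.0586 at 5 h and 2.07% ± 0.416 in the 12 h libraries. The log2 ratio of 3p to 5p differed by 0.17 between 5 h and 0 h (SE 0.27, limma adjusted p = 0.961); the groups were separated, as in 18.4% of all hairpins. For 12 h against 0 h the difference was 0.12 (SE 0.27, 95% interval -0.51 to 0.75, limma adjusted p = 0.893).

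miR-106b-5p, which shares its seed with miR-93-5p, had 4902, 4981 and 4039 CPM at 0 h, 3939, 4709 and 5060 CPM at 5 h and 4372, 4005 and 4076 CPM at 12 h. The 3 times overlapped, and no time held all of the low or all of the high libraries. The log2 change was -0.022 for 5 h against 0 h (SE 0.12, 95% interval -0.27 to 0.22, edgeR adjusted p = 0.996). For 12 h against 0 h it was -0.16 (SE 0.12, 95% interval -0.41 to 0.087, edgeR adjusted p = 0.892).

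miR-106b-3p had 1.29, 2.98 and 0.457 CPM at 0 h, 2.52, 1.74 and 3.34 CPM at 5 h and 1.42, 0.675 and 1.10 CPM at 12 h. It had 3 to 57 counts in a library. The 95% interval of its log2 change at 12 h against 0 h ran from -3.25 to 2.11, so neither the direction nor the size of a change was settled. The parts of depth and of spread between replicates in that width were not tested. Libraries of 12 h were all below those of 5 h. Of the counts of MIR106B the 3p arm made up 0.0325% ± 0.0248 at 0 h, 0.0557% ± 0.0162 at 5 h and 0.0254% ± 0.00791 at 12 h.

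In the comparison of 12 h with 5 h, edgeR called 0 of the 6 members, against 0.571% of all rows. At an unadjusted p under 0.05 there were 2 (miR-25-5p and miR-93-5p), and DESeq2 and limma-voom called 0. The groups were separated for 3 members, miR-25-5p and miR-106b-3p lower and miR-93-3p higher at 12 h, against 12.8% of all rows in either direction, 7.85% lower and 4.99% higher. For miR-106b-3p the log2 change of -1.25 had an SE of 1.29.

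**Figure D4:**
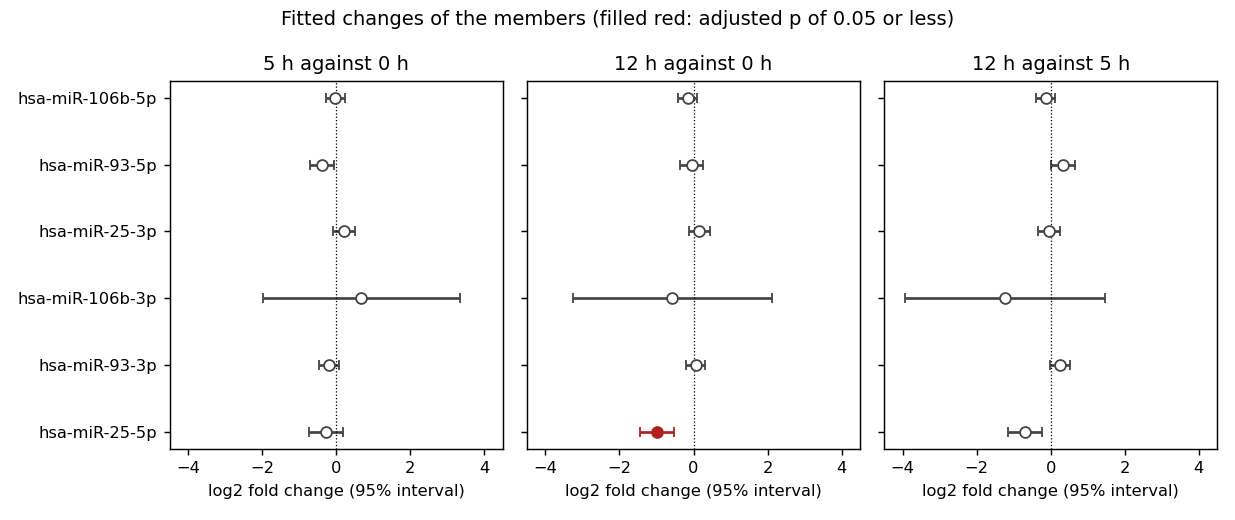
Fitted log2 fold changes (x axis) of the 6 members with 95% intervals from edgeR, for 5 h against 0 h, 12 h against 0 h and 12 h against 5 h. The 1 filled point, miR-25-5p at 12 h against 0 h (-0.99), has an adjusted p of 0.0210, and the widest intervals belong to miR-106b-3p.

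Whether the products of 1 intron kept their proportions was tested on the ratios of the dominant arms within each library. The log2 ratio of miR-106b-5p to miR-93-5p averaged -2.03 ± 0.40 at 0 h, -1.68 ± 0.24 at 5 h and -2.11 ± 0.40 at 12 h (exact permutation test of any difference among the 3 times, over 1680 arrangements, p = 0.346). That of miR-25-3p to miR-93-5p averaged -4.59 ± 0.43, -3.99 ± 0.16 and -4.35 ± 0.48 at the same times (exact permutation p = 0.257). For miR-106b-5p to miR-25-3p the means were 2.56 ± 0.30, 2.31 ± 0.10 and 2.24 ± 0.090 (exact permutation p = 0.0893, 0.268 after adjustment over the 3 ratios). The ratio of miR-106b-5p to miR-25-3p was lower in all libraries of 12 h (2.13, 2.28 and 2.30) than in any of 0 h (2.90, 2.39 and 2.39), a difference of -0.32 (exact permutation p = 0.1, the smallest that 3 against 3 can give). No ratio differed between times beyond the threshold.

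How closely the dominant arms tracked each other and other miRNAs over the 9 libraries was described pair by pair. Likeness was measured as the SD over 9 libraries of the log2 ratio of a pair, among 118 mature miRNAs with a mean of at least 100 CPM. The closest to miR-106b-5p were miR-18a-5p (SD 0.0422), miR-20a-5p (0.107) and let-7g-5p (0.112). The first 2 of these come from the miR-17/92a cluster, while miR-25-3p was 57th (0.219) and miR-93-5p 105th (0.366), against a median of 0.225 over all miRNAs compared with miR-106b-5p.

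For miR-93-5p the closest were miR-151a-5p (SD 0.0845), miR-181a-5p (0.108) and let-7b-5p (0.122). Its own opposite arm, miR-93-3p, was 12th (0.192), miR-106b-5p 72nd (0.366) and miR-25-3p 86th (0.422), where the median was 0.337. miR-25-3p was closest to miR-140-5p (0.115), miR-454-3p (0.122) and miR-98-5p (0.123), with miR-106b-5p 43rd (0.219) and miR-93-5p farther down than that (0.422), where the median was 0.248. Of the 3 pairs of dominant arms, the 2 with miR-93-5p lay above both medians that apply to them, and miR-106b-5p with miR-25-3p lay just below its medians. These orders are descriptions: the closest 3 are picked from many, the points share libraries and depth, and the 2 shallowest libraries had the highest miR-93-5p.

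The share of the cluster in the miRNA counts did not differ between times beyond the threshold. With each mature miRNA counted once, its 6 products together held a share of 3.80% ± 0.314 at 0 h, 3.23% ± 0.119 at 5 h and 3.71% ± 0.565 at 12 h (exact permutation p = 0.204, 0.305 after adjustment over 3 shares). The 5 h libraries (3.25%, 3.10% and 3.34%) were all below those of 0 h (3.90%, 3.45% and 4.05%), a difference of -0.567 percentage points (exact permutation p = 0.1, the smallest possible).

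Within the AAAGUGC family, miR-93-5p was the largest contributor with 31.2% ± 4.85 of the family's counts over 9 libraries. miR-17-5p and miR-20a-5p of the miR-17/92a cluster followed with 23.3% and 20.5%, then miR-20b-5p of the miR-106a/miR-363 cluster with 10.5%, miR-106b-5p with 8.09% and miR-106a-5p with 6.53%. miR-519d-3p and miR-526b-3p were at 0. The family held 8.61% ± 0.327 of all mature counts.

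The part of this family that came from the MCM7 intron, miR-93-5p with miR-106b-5p, was 41.5% ± 3.55 at 0 h, 35.5% ± 0.964 at 5 h and 40.8% ± 4.87 at 12 h (exact permutation p = 0.146, adjusted 0.305). Again the 5 h libraries (36.3%, 34.4% and 35.7%) lay below all of 0 h (41.7%, 37.8% and 44.9%). At 5 h against 0 h the mean log2 change was -0.38 for miR-93-5p and -0.022 for miR-106b-5p, so that the lower share at 5 h went with the values of miR-93-5p; neither passed the test. The other family members had mean log2 changes between 0.013 and 0.091, and edgeR called 0 of the 6 tested family members in each comparison. Of all rows it called 1.57% (5 h against 0 h), 1.43% (12 h against 0 h) and 0.571% (12 h against 5 h). A count of 0 of 6 is near those shares. At an unadjusted p under 0.05 there was 1, miR-93-5p, for 5 h against 0 h and for 12 h against 5 h, and DESeq2 and limma-voom called 0.

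**Figure D5:**
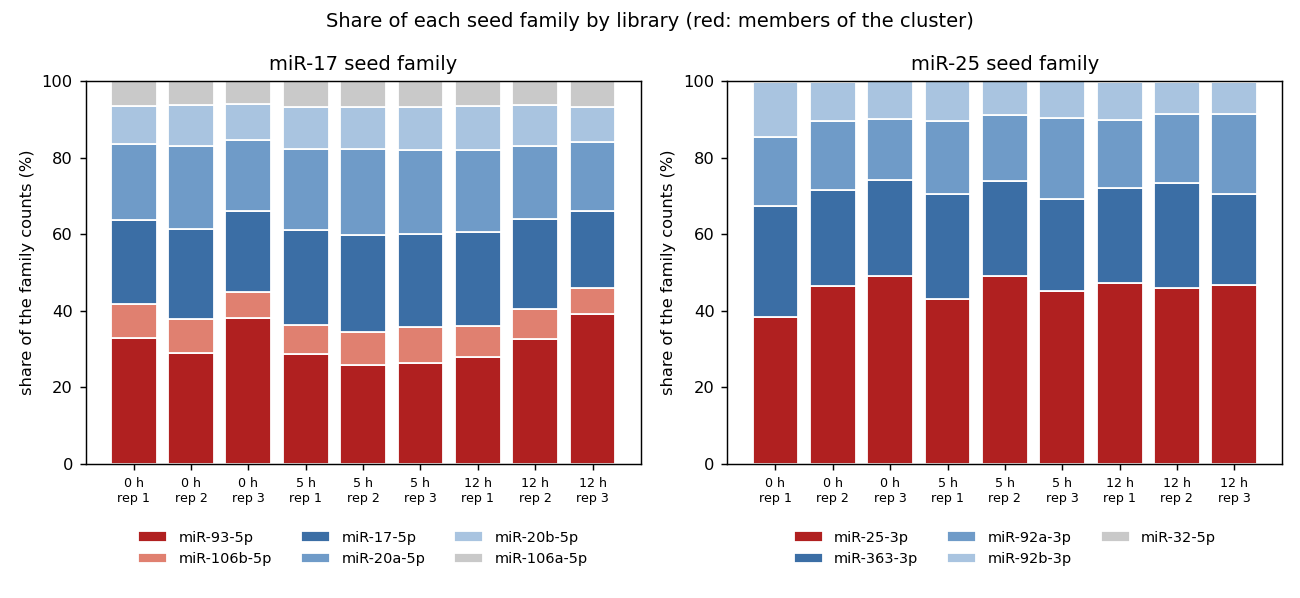
Share (%, y axis) of each mature miRNA in the counts of its seed family in each of the 9 libraries (x axis), for the seed AAAGUGC (left) and AUUGCAC (right); red bars are products of the cluster. miR-93-5p with miR-106b-5p took 34.4% to 45.8% of the first family, and miR-25-3p 38.4% to 49.2% of the second.

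In the AUUGCAC family miR-25-3p was the largest contributor, with 45.7% ± 3.30 of the counts over 9 libraries. miR-363-3p held 25.7%, miR-92a-3p 18.4%, miR-92b-3p 10.0% and miR-32-5p 0.131%, and miR-367-3p was at 0. The whole family held 0.296% ± 0.0371 of all mature counts, far less than the AAAGUGC family. The share of miR-25-3p was 44.7% ± 5.56 at 0 h, 45.8% ± 3.03 at 5 h and 46.6% ± 0.743 at 12 h (exact permutation p = 0.875, adjusted 0.875). edgeR, DESeq2 and limma-voom called 0 of the 5 tested family members in each comparison. That is near the shares of all rows called by edgeR, 1.57% (5 h against 0 h), 1.43% (12 h against 0 h) and 0.571% (12 h against 5 h). For 12 h against 5 h 1 member, miR-32-5p, had an unadjusted edgeR p under 0.05.

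The opposite arms of the other hairpins that carry AUUGCAC were set beside miR-25-5p, a list chosen after the values were seen. miR-92a-1-5p had 68.0 ± 13.9 CPM at 0 h, 132 ± 20.5 CPM at 5 h and 45.5 ± 5.82 CPM at 12 h. miR-92a-2-5p had 16.4 ± 4.38, 13.6 ± 1.34 and 6.41 ± 1.91 CPM at the same times, and miR-92b-5p 73.2 ± 14.5, 50.2 ± 6.46 and 46.8 ± 10.1 CPM. In that list, miR-92a-1-5p was called higher at 5 h than at 0 h (log2 change 0.96, SE 0.21, edgeR adjusted p = 0.0181) and lower at 12 h than at 5 h (log2 change -1.53, SE 0.21, edgeR adjusted p = 0.000349), beside -0.28 and -0.70 for miR-25-5p, which did not pass.

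At 12 h against 0 h the log2 change was -1.36 for miR-92a-2-5p (SE 0.39, edgeR adjusted p = 0.136), -0.65 for miR-92b-5p (SE 0.23, edgeR adjusted p = 0.511) and -0.58 for miR-92a-1-5p (SE 0.21, edgeR adjusted p = 0.511). For miR-363-5p it was -0.49 and for miR-32-3p, which outnumbered its seed-carrying partner, 0.27. The median over the 6 tested arms, miR-25-5p included, was -0.61, against -0.11 over the 160 less abundant arms of hairpins with both arms measured and 0.0079 over all tested mature miRNAs. Of the 6, 1 (miR-25-5p) passed, and of the 160 less abundant arms 1, again miR-25-5p, was called lower and 3 higher. Since the list was chosen after the values were seen and holds the arm that prompted it, its median is a description only.

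The partners of these arms, which carry the seed, had values on both sides of 0. At 12 h against 0 h their log2 change was 0.16 for miR-25-3p, 0.20 and 0.21 for the 2 rows of miR-92a-3p, 0.034 for miR-363-3p, -0.26 for miR-92b-3p and 0.62 for miR-32-5p, and none passed. The log2 ratio of 3p to 5p was 1.56 higher at 12 h than at 0 h in mir-92a-2 (limma adjusted p = 0.0835, second of 163 by p) and 0.78 higher in mir-92a-1 (limma adjusted p = 0.563), beside 1.18 in mir-25. It was 0.53 higher in mir-363 and 0.40 higher in mir-92b, and 0.32 lower in mir-32, whose 5p arm is the one with the seed and had at most 53 counts. Hairpins of the AAAGUGC family differed by 0.13 (mir-20a), -0.23 (mir-17), -0.41 (mir-20b), 0.12 (mir-93) and -0.11 (mir-106b). None of these passed the threshold. miR-92a-3p has the same sequence in mir-92a-1 and mir-92a-2, so its reads cannot be assigned to either hairpin. The ratios of these hairpins share that arm and are not arm balances within 1 hairpin.

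The paralogous clusters were compared as wholes. The lists of the miR-17/92a and miR-106a/miR-363 clusters both hold miR-19b-3p and miR-92a-3p, so their counts and medians are not independent. Of 11 tested products of the miR-17/92a cluster, 1 (miR-92a-1-5p) rose at 5 h against 0 h, where 1.43% of all rows were called higher, and was lower at 12 h than at 5 h, where 0.428% were called lower. At 12 h against 0 h edgeR called none of the 11, where 1.43% of all rows were called, and DESeq2 and limma-voom called 0. At an unadjusted p under 0.05 there were 3 (miR-19a-3p, miR-19b-3p and miR-92a-1-5p), and the median log2 change was -0.029. Of 10 tested products of the miR-106a/miR-363 cluster none passed in any comparison in edgeR, DESeq2 or limma-voom. Of all rows, edgeR called 1.57% (5 h against 0 h), 1.43% (12 h against 0 h) and 0.571% (12 h against 5 h). At an unadjusted p under 0.05 there were 0, 3 and 2 of the 10, in the same order of comparisons. The share of all rows at that unadjusted p was not counted, so these numbers have no background beside them. The median log2 change of these 10 at 12 h against 0 h was 0.0048. The 6 products of the miR-106b/25 cluster had a median of -0.11 at both 5 h and 12 h against 0 h, beside 0.029 and 0.011 over all tested rows. The miR-15b/16-2 cluster lies in an intron of SMC4, another gene of dividing cells. Of 3 listed products (miR-15b-5p, miR-15b-3p and miR-16-2-3p) edgeR called none, beside the shares of all rows given above. At an unadjusted p under 0.05 there were 0, and DESeq2 and limma-voom called 0. The median of the 3 was -0.12 at 12 h. The list left out miR-16-5p, a product of both mir-16-1 and mir-16-2, so that median does not describe the whole cluster. The log2 ratio of 3p to 5p in mir-16-2 averaged -13.0, with 5p reads that can come from either hairpin.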

How the data were processed

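The authors deposited raw counts per pair of precursor and mature miRNA, and a table of log2 values. Its 430 rows are those above 0 in all libraries and include the 6 members; the deposited log2 values equal log2 of (count over 1 factor per library, plus 1) to within 5.05e-09. Per the submitters' processing notes, GRCh38.p13 is the build and DESeq2 a tool used; aligner and counter: not given in the sources used here. Groups and replicate numbers came from the labels, and all columns were used.

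Counts were filtered with filterByExpr (minimum count 10, minimum total 15), scaled by TMM and fitted in edgeR 4.0.16 (R 4.3.3; quasi-likelihood, 1 mean per time, 9 libraries); rows with an adjusted p up to 0.05 over all 701 were called. CPM use all rows of the table. The share of all rows at an unadjusted p under 0.05 was not counted, so counts of members at that p stand without it. Shares of all rows called are those of edgeR, and counts called by DESeq2 or limma-voom stand without such a share. Arm ratios (0.5 counts added) were tested with limma 3.58.1, and ratios and shares by exact permutation. DESeq2 1.42.0, limma-voom, other scalings and filters, the replicate block and left-out libraries were alternatives. The edgeR fit and the limma test of arm ratios were tried on simulated data, and the permutation test on made-up values. The alternative settings had no such trial. The common biological coefficient of variation was 77.0%, and replicate pairs differed by a chi-square over degrees of freedom of 70.4 or more, so no library was a duplicate. Floors in counts cover counting error only.

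All 6 members were named, with up to 4 of the most abundant or the called members of each list, the 3 closest miRNAs to each dominant arm and the related hairpins. Members and lists were chosen with earlier results of these data known. Sequences came from RefSeq, positions from GENCODE 29. Plots used matplotlib 3.10.9 in Python 3.11.15.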

Additional observations from a re-analysis of the deposited data

How the results depend on the processing

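The call of miR-25-5p at 12 h against 0 h held in 13 of 21 alternatives. The number of members called was 0 with library totals (miR-25-5p edgeR adjusted p = 0.0619), upper quartile factors (0.0917), only the 2 groups compared (0.111), limma on the deposited log2 values (0.0770) and without the 2 shallowest libraries (0.161); over left-out replicates it was 0 to 1. Upper quartile factors put the median of all rows at 0.17 for 12 h against 0 h and 0.13 for 12 h against 5 h, where the log2 value of miR-25-5p was -0.83 and -0.54. For 5 h against 0 h 1 member was called with no filter. For any difference 1 member (miR-25-5p) was called with no filter, the stricter filter, DESeq2 and the replicate block, and 0 to 1 over left-out replicates. The labels name no pairing of libraries by replicate number, and correlations of same-numbered libraries did not settle it. Of 9 such correlations 3 were over 0.1 (range -0.53 to 0.64), the highest being of replicate 3 at 0 h and 12 h. With the replicate block the miR-25-5p edgeR adjusted p was 0.00416 at 12 h against 0 h. Over the alternatives, the arm ratio of mir-25 at 12 h against 0 h was 0.96 to 1.43 higher, with a limma adjusted p of 0.0688 to 0.780; prior variance following the level was added after seeing the data. Some small changes that were not called turned their sign. For miR-106b-5p at 5 h against 0 h the log2 change was 0.032 with library totals and -0.14 to 0.051 over left-out replicates (positive without replicates 1 and 2 of 0 h and 1 of 5 h). For miR-93-5p at 12 h against 0 h it was 0.10 with upper quartile factors and -0.32 to 0.089 over left-out replicates (positive without replicate 3 of 0 h and 1 of 12 h). In that comparison left-out replicates gave -0.99 to 0.24 for miR-106b-3p, -0.045 to 0.10 for miR-93-3p and -0.64 to 0.45 for the arm ratio of mir-106b, the turned signs all coming without replicate 2 of 0 h, and for the arm ratio also without replicate 2 of 12 h (0.16). At 12 h against 5 h, upper quartile factors gave 0.025 for miR-106b-5p and 0.11 for miR-25-3p, which was -0.17 to 0.018 over left-out replicates (positive without replicate 2 of 5 h); the mir-93 arm ratio changed by -0.15 to 0.13 over left-out replicates (0.13 without replicate 3 of 12 h) and by 0.13 without the 2 shallowest libraries. The cause was not tested. Counts over all rows moved over 1.5 times: for 5 h against 0 h (11) to 17 with no filter and 5 with the log2 values; for 12 h against 0 h (10) to 6 with only the 2 groups and 6 with the log2 values; for 12 h against 5 h (4) to 12 with no filter, 11 with the block and 10 without 12 h replicate 1; for any difference (12) to 21 with no filter, 21 with the block, 7 with the log2 values and 7 without 12 h replicate 2.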
